A study of Mus musculus with 6 samples.

Results

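The DNA regions described here belong to genes of the kinase cascades that carry calcium, energy, hormone and insulin signals in muscle: the mitogen-activated protein kinases (MAPK) with their upstream kinases, the calcium/calmodulin-dependent kinases (CaMK), phosphoinositide 3-kinase (PI3K), Akt, AMP-activated protein kinase (AMPK), protein kinases A, C and D (PKA, PKC, PKD), the ribosomal S6 kinase family, and the insulin receptor with its substrates. They were chosen by symbol: each deposited region is keyed by a RefSeq transcript, transcripts were paired with symbols, regions whose symbol belongs to these families were kept, and the region of 1 matching gene was left out. With at least 3 measured cytosine positions required, this gave 95 regions of 92 genes, out of 10021 such gene regions in all, and 3033 positions. A further 4 regions matched by symbol but held fewer than 3 positions (Map3k7cl, Mapk8ip2, Mapkapk3 and Prkab1) and were not analysed here. Of 130 protein-coding RefSeq symbols of these families, 34 had no region in the table used here.

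Methylation was measured by reduced representation bisulfite sequencing (RRBS), which enriches CpG-rich DNA with a restriction digest and reads unmethylated cytosines as T after bisulfite conversion. The quadriceps muscle of C57BL/6 mice gave 3 exercised samples, from mice that had run on a motorized treadmill over 4 weeks and whose DNA was taken 3 hours after the final session, and 3 sedentary samples from mice that were not trained. The labels give no transgene, allele or drug in either group, and no age. The comparison asks which regions differ in methylation after training. The labels do not state that each sample is its own animal; p-values then reflect only how these samples vary, which may be technical. Whole muscle holds fibres and other cells, and a change in methylation within cells cannot be told apart from a change in the mixture of cells. Of 31 muscle fibre marker genes 6 had a region, with levels of 0.370% to 72.3%. Methylation of so few markers does not check the tissue label.

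Contraction raises calcium, AMP and cyclic AMP in a muscle fibre, and these second messengers activate CaMK, AMPK and PKA. MAPKs are the last tier of a relay in which a MAP3K phosphorylates a MAP2K and the MAP2K phosphorylates the MAPK, while PI3K and Akt relay insulin to glucose uptake and protein synthesis. CpG-rich promoters are mostly unmethylated in cells that can use the gene, and dense promoter methylation generally goes with silencing.

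The promoter sequences of 4 of these genes show where the methylated cytosines lay. Deposited positions (build mm9) were placed on RefSeq promoter sequences (build GRCm38.p6, 250 bases before to 50 after the annotated start) by setting the start 2000 bases into each region along the gene's strand. A promoter was used only if at least 3 positions fell in it and all of them fell on a CG, which held for 28 of 47 promoters of these genes tried. Over all genes, all positions fell on CG in 56.2% of 5164 promoters at this placement, against 8.85% and 7.22% after a shift of 1 base either way. Each sequence is given 5′ to 3′ along the gene's strand, and capitals mark each measured CG whose mean level was at least 10% on either strand. Prkca, Prkar2a and Camkk2 are the kinases and kinase subunits with the most measured positions among promoters in which every capital CG lies within the letters CCGG, and Prkd3 is shown because 1 of its 3 does not.
Prkca (chr11:108343839-108344138, minus strand): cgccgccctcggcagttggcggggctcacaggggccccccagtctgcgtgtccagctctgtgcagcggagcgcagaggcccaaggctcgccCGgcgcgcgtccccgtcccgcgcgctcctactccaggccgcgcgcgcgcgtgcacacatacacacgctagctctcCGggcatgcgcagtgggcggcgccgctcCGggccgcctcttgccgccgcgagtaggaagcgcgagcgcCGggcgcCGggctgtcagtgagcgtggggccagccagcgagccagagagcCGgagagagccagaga
Prkar2a (chr9:108691893-108692192, plus strand): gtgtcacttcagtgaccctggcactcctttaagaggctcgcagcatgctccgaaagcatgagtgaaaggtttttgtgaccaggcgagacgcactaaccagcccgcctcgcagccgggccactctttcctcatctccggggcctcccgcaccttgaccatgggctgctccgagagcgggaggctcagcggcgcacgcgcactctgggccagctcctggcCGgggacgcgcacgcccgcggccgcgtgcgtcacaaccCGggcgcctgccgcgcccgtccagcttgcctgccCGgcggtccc
Camkk2 (chr5:122779361-122779660, minus strand): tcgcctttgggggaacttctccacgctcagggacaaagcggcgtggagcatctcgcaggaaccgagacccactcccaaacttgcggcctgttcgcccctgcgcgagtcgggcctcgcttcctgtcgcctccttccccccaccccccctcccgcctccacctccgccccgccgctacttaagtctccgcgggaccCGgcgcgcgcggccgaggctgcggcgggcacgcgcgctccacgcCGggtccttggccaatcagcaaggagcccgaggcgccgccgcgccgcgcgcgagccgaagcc
Prkd3 (chr17:79020767-79021066, minus strand): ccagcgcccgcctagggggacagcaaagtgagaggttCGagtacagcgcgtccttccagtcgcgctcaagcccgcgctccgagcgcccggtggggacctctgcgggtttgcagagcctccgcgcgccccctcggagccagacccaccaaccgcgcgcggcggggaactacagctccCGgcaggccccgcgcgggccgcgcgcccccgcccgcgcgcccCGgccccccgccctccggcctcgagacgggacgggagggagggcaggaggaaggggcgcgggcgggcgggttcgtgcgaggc
In Prkca, the gene of PKC alpha, all 6 capital CGs lie within CCGG. The 10 measured CCGG positions averaged 63.7% ± 3.51 in exercised samples and 63.9% ± 1.98 in the sedentary ones (SD, n = 3 per group), while the other measured positions of the promoter averaged 1.08% ± 0.798 in exercised samples and 0.974% ± 0.0594 in the sedentary ones (SD, n = 3 per group). The same contrast held in Prkar2a, a regulatory subunit of PKA, where the CCGG positions averaged 59.0% in exercised and 57.5% in sedentary samples and the others 1.34% in exercised and 1.42% in sedentary samples. In Camkk2, the kinase that activates CaMKs and AMPK, the CCGG positions averaged 56.1% in exercised and 58.1% in sedentary samples, and the others 1.55% in exercised and 1.48% in sedentary samples. Prkd3, a PKD isoform, had 2 capital CGs within CCGG and 1 outside it, at a mean level of 99.0% over the 6 samples. The CG outside it lies within the letters TCGA. So does every other measured CG outside CCGG that reached 10% in the placed promoters of these genes. TCGA was not searched for over all promoters.

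CCGG was the motif searched. It reads the same on both strands, and it occurs in 52.8% of all 32851 promoters of the table. Over the 28 placed promoters of these genes, 94 positions lay within CCGG and 279 in other CGs. The CCGG positions had a median level of 64.4%, and 89 of the 94 reached 10%, whereas the other CG positions had a median of 1.08% and 5 of the 279 reached 10%. Both contexts were measured in 25 of the 28 promoters, and the CCGG positions had the higher mean in each of the 25. The mean over CCGG positions was 58.8% ± 1.85 in exercised samples and 57.4% ± 0.681 in the sedentary ones (SD, n = 3 per group), and over other CGs 2.96% ± 0.210 in exercised samples and 2.73% ± 0.130 in the sedentary ones (SD, n = 3 per group). The groups overlapped within each context. The pattern was not particular to these genes: over all 2901 placed promoters the medians were 68.6% within CCGG and 1.47% elsewhere.

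The strands of a CCGG also differed. Both strands were measured at 35 CCGG CGs of these promoters. The strand with the higher level had a median of 97.5% and the other strand 17.1%. The gap passed 50 points at 25 of the 35 (71.4%), against 68.0% of 3229 such CGs over all placed promoters. At 96 other CGs with both strands measured, the medians were 1.59% and 0.774%, and 1 gap passed 50 points (1.04%, against 2.30% over all placed promoters). CpG methylation in mammals is normally copied to both strands. CCGG is the sequence that the enzyme MspI cuts, the enzyme commonly used in RRBS; the labels do not name the enzyme used, and the part of the digest in these levels was not tested. In view of this pattern the main counts and medians below are also given without stand-alone positions, meaning positions at 10% or more whose neighbours within 100 bases of the same region had a median under 10%. Stand-alone positions made up 734 of the 3033 positions (24.2%, against 24.8% over the whole table). Of the 88 in the placed promoters 83 lay within CCGG. The 6 other positions at 10% or more there also lay within CCGG and were kept, so this step removes only part of the pattern.

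**Figure D1:**
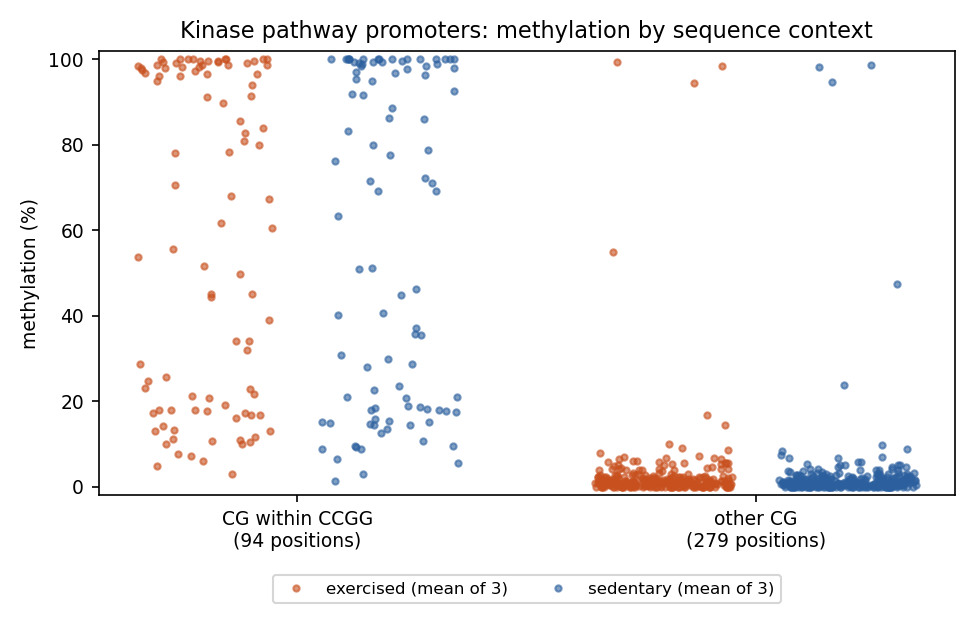
Methylation of single positions in the 28 placed promoters of kinase pathway genes, each point the mean of 3 exercised (orange) or 3 sedentary (blue) samples; the vertical axis is methylation in percent and points are spread sideways only for legibility. CG positions within CCGG fill the whole range with a median of 64.4%, and all but 5 of the 279 other CG positions have a mean level under 10%.

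For each gene region, the level was computed as methylated reads over all reads, summed across its positions. The 95 regions had a median level of 20.5% (22.0% over all gene regions), and 2.18% without stand-alone positions (2.50% over all). By sample, the median over the 95 regions was 20.7%, 20.5% and 19.3% in the exercised samples in order, against 20.9%, 18.7% and 20.7% in the sedentary ones, so the groups overlapped. Without stand-alone positions it was 1.95%, 2.75% and 2.18% in exercised samples, against 2.42%, 2.07% and 2.74% in sedentary samples, again overlapping. A level could be computed without stand-alone positions in 93 regions; 70 of them (75.3%) were under 5%, against 67.1% over all gene regions, and 14 (15.1%) were at 10% or more, against 23.8% over all gene regions. Stand-alone positions were 85.2% of the positions at 10% or more in these regions, so leaving them out lowers a level by construction.

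The 14 regions at 10% or more without stand-alone positions held 8 to 57 positions, the most in Mapk14. The 5 regions with the highest level over all positions were sparsely covered. Pik3r5, a regulatory subunit of the PI3K of G protein-coupled receptors best known from leukocytes, had the highest of these levels. Its values were 51.8%, 57.7% and 53.0% in exercised samples and 54.6%, 52.6% and 52.5% in sedentary samples, which overlapped. The downstream region of Prkcz, the atypical PKC zeta, followed at 46.4%, 47.3% and 51.2% in exercised samples and 45.3%, 48.3% and 52.5% in sedentary samples. These samples overlapped those of Pik3r5 at the margin, and the groups overlapped. Rps6kl1, a little-studied relative of the S6 kinases, had 46.0%, 47.2% and 43.0% in exercised and 34.8%, 51.1% and 40.7% in sedentary samples. Prkcq, the PKC theta abundant in skeletal muscle and T cells, had 34.9%, 37.7% and 38.7% in exercised and 47.2%, 35.4% and 27.5% in sedentary samples. All 8 of its positions lay in its placed promoter, and the 5 that reached 10% were its CCGG positions. Those 5 averaged 46.9% in exercised and 49.5% in sedentary samples, and the others 0.617% in exercised and 0% in sedentary samples. Map2k3, the kinase upstream of p38, had 43.6%, 37.8% and 28.6% in exercised and 38.1%, 31.8% and 34.0% in sedentary samples. In all 3 of these genes the groups overlapped, and the genes could not be ordered among themselves beyond the spread of the samples. Each of the 5 regions held 8 or 9 positions, against a median of 30 over the 95 regions.

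At the other end, Pik3c2a, a class II PI3K, had 3 positions and 1.57%, 0% and 1.56% in exercised samples against 0%, 0.339% and 0% in sedentary samples, which overlapped. The next lowest were Map3k9, a mixed-lineage MAP3K, at a mean of 8.67%, Prkar1a, the main regulatory subunit of PKA, at 11.1%, Camk2b, the muscle-expressed beta form of CaMKII, at 11.2%, and Map2k5, which activates Mapk7, at 11.6%. Apart from Pik3c2a these levels came largely from stand-alone positions, since without them the means were 2.19%, 1.26%, 1.18% and 1.07% in the same order.

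**Figure D2:**
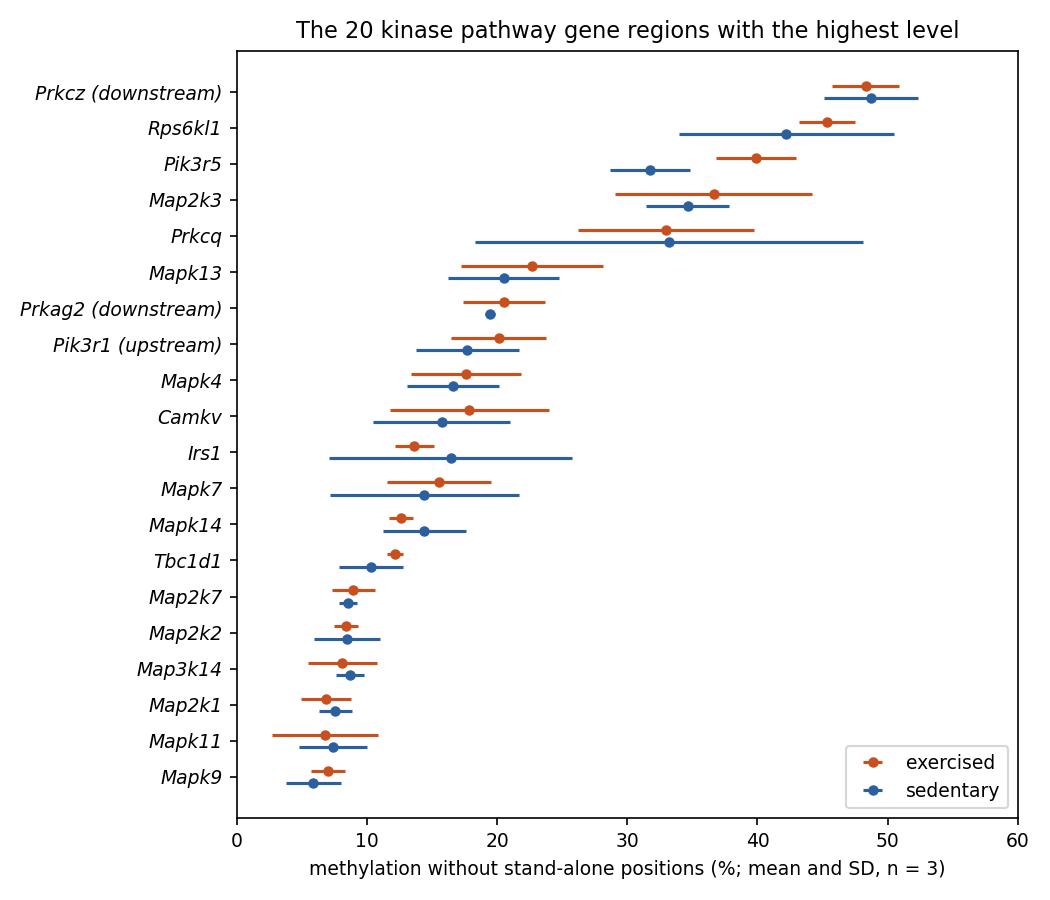
Methylation without stand-alone positions, in percent, of the 20 kinase pathway gene regions with the highest level; points are means and bars SDs of 3 exercised (orange, upper) or 3 sedentary (blue, lower) samples. Prkcz (downstream), at a mean of 48.5%, and Rps6kl1, at 43.8%, lead, and the exercised and sedentary bars of Pik3r5 do not touch.

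Methylation of these regions differed little between exercised and sedentary muscle. edgeR's quasi-likelihood test with Benjamini-Hochberg adjustment over all 10021 regions called none of the 95 regions, nor any gene region (0%), and limma also called 0. The smallest adjusted p among the 95 was 0.9998. At an unadjusted p under 0.05, edgeR called 1 of the 95 regions (Mapk3, lower in exercised samples), where 2.37% of all gene regions were called and 0.908% were called as lower; limma called 1 as well. Differences are given as exercised minus sedentary in percentage points, and they ran from -6.56 to 3.65. Of the 95, 77 (81.1%) were smaller than 2 points in size, against 74.8% of all gene regions. The difference was above 0 in 68 regions and below 0 in 27; over all gene regions 61% were above 0.

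The median difference over the 95 regions was 0.581 points, against 0.390 points over all gene regions. It was 0.223 without exercised sample 1, 0.194 without exercised sample 2, 1.18 without exercised sample 3 and 0.210 without sedentary sample 2. With stand-alone positions left out, the median was 0.182, against 0.176 over all gene regions, and 54 of 93 regions were above 0. The groups did not overlap in 5 of the 95 regions, 2 higher (Rps6ka5 and Tbc1d4) and 3 lower (Mapk3, Mapk11 and Prkar1a) in exercised samples, where 7.25% of all gene regions showed such a separation, 4.91% higher and 2.35% lower.

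**Figure D3:**
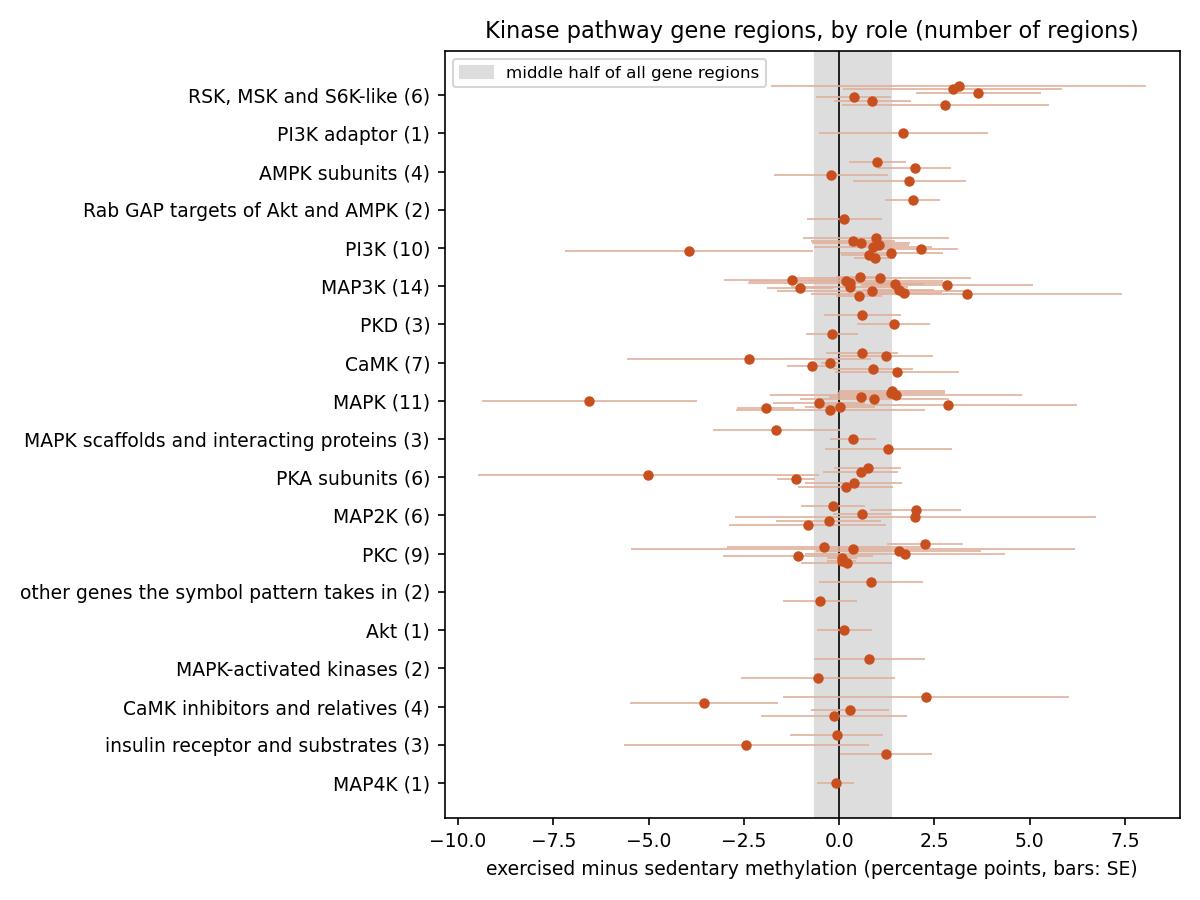
Difference in methylation of each of the 95 kinase pathway gene regions, exercised minus sedentary, in percentage points on the horizontal axis, by role; points are regions, bars are standard errors from 3 exercised and 3 sedentary samples, and the grey band holds the middle 50% of all gene regions. Mapk3, at -6.56 points, lies farthest from 0. All 6 regions of the S6 kinase family lie above 0, as do 68 of all 95 regions.

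Of the cell-surface and adaptor tier, 3 regions were measured. Insr, the insulin receptor (chr8:3278618-3281617, mm9), averaged 17.2% ± 2.01 in exercised samples and 16% ± 0.616 in the sedentary ones (SD, n = 3 per group), which is a difference of 1.22 ± 1.22 points (SE). Irs1, its main substrate in muscle (chr1:82287015-82290014), had 24.4%, 25.3% and 25.2% in exercised samples against 33.8%, 24.1% and 24.3% in sedentary samples. Sedentary sample 1 stood above the other 5, the groups overlapped, and the difference of -2.44 points became 0.757 without that sample. Irs1 was at 15% without stand-alone positions, among the 14 regions at 10% or more. Its 2 measured CCGG positions in the placed promoter, at 20.7% and 98.8%, were not stand-alone and were kept. Irs4, an X-linked substrate, differed by -0.0691 points.

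Of 10 PI3K regions, 9 were above 0 and 1 below, with a median difference of 0.912 points, and of -0.0363 points without stand-alone positions. The exception was Pik3cd, the catalytic delta subunit of leukocytes, with 24.0%, 32.7% and 26.9% in exercised samples against 29.3%, 30.4% and 35.8% in sedentary samples. Its difference was -3.94 ± 3.26 points (SE), with overlapping groups. Without stand-alone positions Pik3r5 stood apart: its 7 remaining positions had 40.5%, 42.7% and 36.6% in exercised samples against 28.2%, 33.9% and 33.1% in sedentary samples. Every exercised sample was above every sedentary one, by 8.18 points on average, and edgeR gave an unadjusted p of 0.193. These are levels over summed reads: the 4 methylated positions among the 7, each weighted equally, averaged 73.3% ± 10.6 in exercised samples and 80.0% ± 10.8 in the sedentary ones (SD, n = 3 per group), the opposite direction, and with all 9 positions of the region weighted equally the difference was -2.95 points. Such separation without stand-alone positions occurred in 5 of 93 regions (Pik3r5, the downstream region of Pik3r1 and Camkk1 higher, Mapk3 and Prkar1a lower in exercised samples), against 9.18% of all gene regions (6.5% higher, 2.68% lower). Pik3ap1, a PI3K adaptor of B cells, differed by 1.68 points with overlapping groups.

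Akt1, the Akt isoform with a region here (chr12:113911488-113914487), was measured at 101 positions. It had 19.5%, 18.9% and 17.3% in exercised samples against 18.7%, 17.8% and 18.8% in sedentary samples. Its difference was 0.137 ± 0.716 points (SE), with overlapping groups. Of the Rab GTPase-activating proteins that Akt and AMPK phosphorylate to release glucose transporters to the fibre surface, Tbc1d4 (AS160, chr14:102007409-102010408) had 27.3%, 24.9% and 25.4% in exercised samples against 24.1%, 23.7% and 24.0% in sedentary samples. All exercised samples were above all sedentary ones, by 1.93 ± 0.722 points (SE), with an unadjusted p of 0.243 in edgeR's test. At 4 stand-alone positions of Tbc1d4 the mean was 61.3% ± 3.89 in exercised samples and 58.4% ± 1.95 in the sedentary ones (SD, n = 3 per group). The groups overlapped at these positions, and they also overlapped without them. These positions held 43.8%, 40.3% and 41.4% of the region's reads in exercised samples against 33.7%, 39.6% and 42.7% in sedentary samples. With positions covered at least 20 times the difference was 0.377 points. Tbc1d1, the paralog more abundant in fast fibres, differed by 0.139 ± 1.0 points (SE) around a level of 29.8%.

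AMPK was represented by 4 regions of 3 genes. Prkaa2, the catalytic alpha2 subunit of muscle (chr4:104781504-104784503), had 29.7%, 26.7% and 25.6% in exercised samples against 27.0%, 25.5% and 24.0% in sedentary samples, overlapping, with a difference of 1.84 ± 1.48 points (SE). Prkab2, the muscle beta subunit, had a difference of -0.213 ± 1.5 points (SE). Prkag2, a gamma subunit that binds AMP, had 2 regions, described with the alternative starts below.

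Of 7 CaMK regions 4 were above and 3 below 0, between -2.36 points (Camk4, 5 positions) and 1.51 points (Camk1d). Without stand-alone positions 5 of the 7 were above 0, with a median of 0.418 points. The 3 measured CaMKII genes differed by less than 1 point in size: Camk2b by 0.879 ± 1.05, Camk2d by -0.711 ± 0.657 and Camk2g by -0.232 ± 0.255 points (SE). Camk2g was the steadiest of them, at 24.1%, 24.6% and 23.8% in exercised samples and 24.5%, 24.4% and 24.2% in sedentary samples. Camkk2, whose promoter is printed above, differed by 0.597 ± 0.943 points (SE). Camkmt, an enzyme that methylates calmodulin, had the largest negative difference of the CaMK relatives, -3.56 ± 1.94 points (SE) over 5 positions, with 13.6%, 15.8% and 19.2% in exercised samples against 19.1%, 18.3% and 21.8% in sedentary samples. The groups overlapped.

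In the MAPK cascade, 12 of 14 MAP3K regions were above 0 with a median of 0.70 points, 3 of 6 MAP2K regions were above 0 with a median of 0.220 points, and the lone MAP4K region, Map4k4, differed by -0.0932 points over 113 positions. Without stand-alone positions 8 of the 14 MAP3K regions were above 0, with a median of 0.0563 points, and 4 of the 6 MAP2K regions, with a median of 0.297 points. Map3k11, a mixed-lineage kinase upstream of JNK, had the largest difference of its tier, 3.35 ± 4.08 points (SE), with 32.8%, 24.4% and 22.8% in exercised samples against 28.5%, 19.7% and 21.7% in sedentary samples. The groups overlapped widely. Map2k5 had 14.3%, 10.9% and 12.7% in exercised samples against 9.29%, 11.2% and 11.5% in sedentary samples, also overlapping, and differed by 2.0 ± 1.19 points (SE) with an unadjusted p of 0.0906. Map3k2, which acts on Map2k5, differed by 1.56 ± 0.929 points (SE).

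Of 11 MAPK regions 7 were above and 4 below 0, and without stand-alone positions 6 were above 0. Mapk3 (ERK1, chr7:133901140-133904139) had 16.9%, 18.1% and 17.2% in exercised samples against 28.1%, 18.6% and 25.1% in sedentary samples. The groups did not overlap, by 0.511 points between their nearest samples. The difference was -6.56 ± 2.82 points (SE), with an unadjusted p of 0.0210 in edgeR's test, and it ranged from -9.22 to -4.50 points when 1 sample was left out. The unadjusted p was 0.0502 without exercised sample 3, 0.102 without sedentary sample 1 and 0.0556 without sedentary sample 3.

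Averaged over the 4 stand-alone positions of Mapk3 the level was nearly equal, 76.7% ± 0.808 in exercised samples and 76.1% ± 1.22 in the sedentary ones (SD, n = 3 per group). Of the 4 positions, 3 were higher and 1 lower in exercised samples, the last at 14.9% against 22.5%. The 4 positions held 24.8%, 26.1% and 23.6% of the region's reads in exercised samples against 44.1%, 24.1% and 36.8% in sedentary samples. The shares were highest in sedentary samples 1 and 3, which also had the highest region levels. Sedentary sample 2 had a share within the exercised range but a region level above all exercised samples. Whether the share bears on the difference was not tested. With every position weighted equally the difference was -0.867 points, with an unadjusted p of 0.236 in limma's test. At the remaining 15 positions the level was 0%, 0.710% and 0.466% in exercised samples against 1.5%, 2.17% and 1.42% in sedentary samples. The groups were apart there too, with a difference of -1.30 points and an unadjusted p of 0.0199 in edgeR's test. All 19 positions of the region together held 334 to 972 reads per sample, so levels this near 0% rest on few methylated reads.

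Mapk11 (p38 beta, chr15:88979037-88982036) had 28.3%, 26.0% and 26.4% in exercised samples against 28.8%, 29.2% and 28.5% in sedentary samples. Every exercised value was below every sedentary one, the nearest by 0.203 points, and the difference was -1.93 ± 0.754 points (SE) with an unadjusted p of 0.250 in edgeR's test. The region holds a stand-alone cytosine, position 88979848, described with the single positions, and without stand-alone positions the difference was -0.635 points with overlapping groups. Mapk14 (p38 alpha, chr17:28826287-28829286), the p38 form most studied in trained muscle, averaged 24.3% ± 0.749 in exercised samples and 24.8% ± 1.95 in the sedentary ones (SD, n = 3 per group). Of the scaffolds, Mapk8ip3, which brings JNK to its upstream kinases, differed by -1.65 ± 1.66 points (SE), and of the MAPK-activated kinases Mapkapk5 differed by 0.791 ± 1.45 points (SE).

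In the S6 kinase family all 6 regions had a positive difference, with a median of 2.88 points. It was 1.74 points without stand-alone positions over 5 regions. None passed a test. By comparison, 68 of all 95 regions (71.6%) and 61% of all gene regions were above 0. Rps6ka5 (MSK1, chr12:101962239-101965238), a nuclear kinase that phosphorylates histone H3 and CREB downstream of ERK and p38, had 30.3%, 29.4% and 25.2% in exercised samples against 23.7%, 25.2% and 25.1% in sedentary samples. The groups were apart by 0.0451 points between their nearest samples, and the difference was 3.65 ± 1.64 points (SE) with an unadjusted p of 0.0539 in edgeR's test. It was 2.64 to 5.20 points when 1 sample was left out, and 0.501 points without stand-alone positions, with overlapping groups. At 7 stand-alone positions of Rps6ka5 the mean was 66.9% ± 4.87 in exercised samples and 61.5% ± 2.81 in the sedentary ones (SD, n = 3 per group). Of the 7, 6 had a higher mean in exercised samples, and the samples of the groups overlapped in their mean over the 7. Rps6kl1 differed by 3.13 ± 4.93 points (SE) and by -0.577 points without sedentary sample 1. Rps6kc1 differed by 2.97 ± 2.88 points (SE) over 3 positions.

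**Figure D4:**
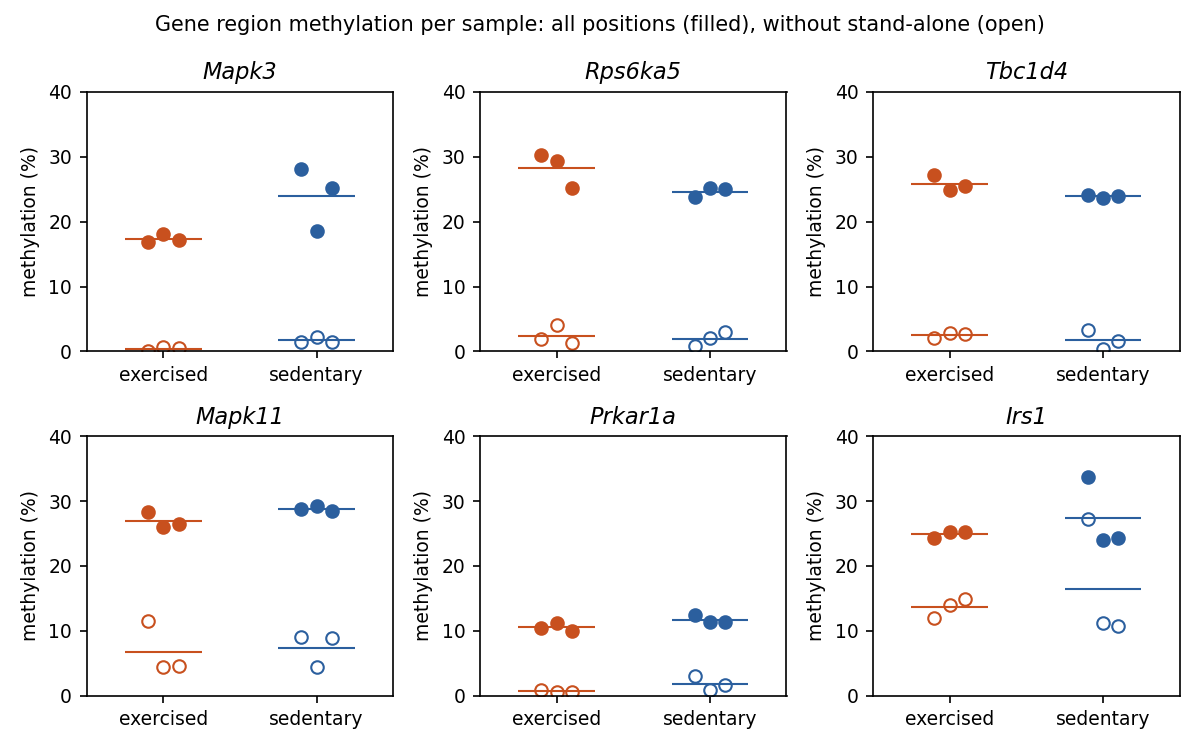
Methylation of 6 gene regions in percent, 1 point per sample, exercised (orange) left of sedentary (blue), with all positions (filled) and without stand-alone positions (open); lines are group means. With all positions the groups are apart in Mapk3, Rps6ka5, Tbc1d4, Mapk11 and Prkar1a, and in Irs1 sedentary sample 1, at 33.8%, stands above the others.

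Among 6 PKA regions 4 were above 0, and without stand-alone positions 3 of 5 were. Prkaca, the catalytic alpha subunit, differed by 0.166 ± 1.24 points (SE). Prkar1a (chr11:109510263-109513262), which holds PKA inactive until cyclic AMP binds, had 10.4%, 11.3% and 10% in exercised samples against 12.4%, 11.3% and 11.4% in sedentary samples. The groups were apart by 0.0394 points between their nearest samples, with a difference of -1.14 ± 0.510 points (SE) and an unadjusted p of 0.353 in edgeR's test. Its 2 stand-alone positions went the other way, with 100% in each exercised sample against 87.8%, 100% and 90.0% in sedentary samples. Prkar1b, the beta form found mainly in brain, differed by -5.01 ± 4.47 points (SE) over 3 positions, next after Mapk3 in size, and by -0.648 points without exercised sample 1. Its values were 18.4%, 31.0% and 32.0% in exercised samples against 33.8%, 30.5% and 32.1% in sedentary samples, which overlapped.

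Of 9 PKC regions 7 were above 0, with a median of 0.194 points, while without stand-alone positions 3 of the 9 were above 0 and the median was -0.397 points. The largest difference was that of the upstream region of Prkcz, with 15.7%, 16% and 13.2% in exercised samples against 12.0%, 12.7% and 13.4% in sedentary samples, which overlapped. It came to 2.25 ± 1.0 points (SE), with an unadjusted p of 0.0759 in edgeR's test. The 3 PKD regions differed by -0.198 to 1.43 points, the last being Prkd2. Of the genes that share only the symbol pattern, Prkdc, the catalytic subunit of DNA-dependent protein kinase, differed by 0.836 points, and Prkcsh, a glucosidase subunit, by -0.499 points.

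The alternative starts of 3 genes, Prkcz, Prkag2 and Pik3r1, had unlike levels. Prkcz had 48.5% at its downstream region (chr4:154718882-154721881) and 13.8% at its upstream region 15.6 kb away (chr4:154734501-154737500). The downstream region was higher in 6 of 6 samples, by 30.7 to 39.1 points, and without stand-alone positions the levels were 48.5% and 2.69%. Prkag2 had 29.6% at its downstream region (chr5:24413328-24416327) and 20.7% at its upstream region (chr5:24605461-24608460), again higher downstream in 6 of 6 samples, and 20% against 1.86% without stand-alone positions. In Pik3r1, the p85 regulatory subunit that docks PI3K on insulin receptor substrates, the order was the opposite. The downstream region (chr13:102461603-102464602) had 18.5% and the upstream region (chr13:102537173-102540172) 28.7%, lower downstream in 6 of 6 samples, with 2.74% and 18.9% without stand-alone positions. These are comparisons within samples, and no test was made of them.

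Between the groups the same regions differed little. The downstream region of Prkag2 had 30.6%, 30.3% and 30.8% in exercised samples against 27.6%, 30.5% and 27.7% in sedentary samples, overlapping through sedentary sample 2, a difference of 1.98 ± 0.962 points (SE). The upstream region differed by 0.998 ± 0.745 points (SE). The downstream region of Pik3r1 had 20.2%, 18.4% and 20.1% in exercised samples against 17.2%, 18.8% and 16.2% in sedentary samples, overlapping, a difference of 2.15 ± 0.980 points (SE). Its upstream region differed by 0.892 ± 1.55 points (SE), and the downstream region of Prkcz by -0.397 ± 2.56 points (SE).

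Some regions held both highly methylated and nearly unmethylated positions. Leaving out stand-alone positions, 72 positions of the 95 regions had a mean of at least 50%; 11 regions held 3 or more of them, 21 held 1 or 2 and 63 held none. Camkv, a pseudokinase relative of the CaMKs made mainly in brain, had 6 such positions, at -1687 to -1652 bases from the presumed start, averaging 90.4% ± 5.76 in exercised samples and 88.7% ± 3.99 in the sedentary ones (SD, n = 3 per group), and 15 positions under 10% at -29 to 47 bases. Akt1 had 75 positions under 10% and 3 at 50% or more, these at 525 to 750 bases and averaging 98.7% ± 1.16 in exercised samples and 97.5% ± 2.10 in the sedentary ones (SD, n = 3 per group). In Prkag2 (downstream) 4 such positions, at -578 to -492 bases, averaged 94.8% ± 2.75 in exercised samples and 97.0% ± 1.47 in the sedentary ones (SD, n = 3 per group). Its 31 positions under 10% ran from -554 to 551 bases, so the ranges of the high and low positions overlapped. The exercised and sedentary samples overlapped in each of these sets of highly methylated positions.

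Averaged along the gene over the 81 regions whose strand could be matched, methylation without stand-alone positions was lowest just after the presumed start and higher on both sides. From 0 to 250 bases after the start, 713 positions averaged 2.41% ± 0.212 in exercised samples and 2.28% ± 0.215 in the sedentary ones (SD, n = 3 per group), against 4.39% and 4.25% over all gene regions. From 750 to 1000 bases, 37 positions averaged 20.2% ± 1.89 in exercised samples and 20.8% ± 1.88 in the sedentary ones (SD, n = 3 per group), against 11.9% and 11.6% over all gene regions. From -750 to -500 bases, 57 positions averaged 12.8% ± 0.391 in exercised samples and 11.7% ± 0.901 in the sedentary ones (SD, n = 3 per group), against 9.38% and 9.20% over all gene regions. With all positions the kinase pathway regions averaged 17.3% in exercised and 16.8% in sedentary samples from 0 to 250 bases, and 16.9% in exercised and 16.7% in sedentary samples from -250 to 0 bases, so the lowest bin was then the one before the start. The outer bins hold few regions and no test was made of the shape.

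**Figure D5:**
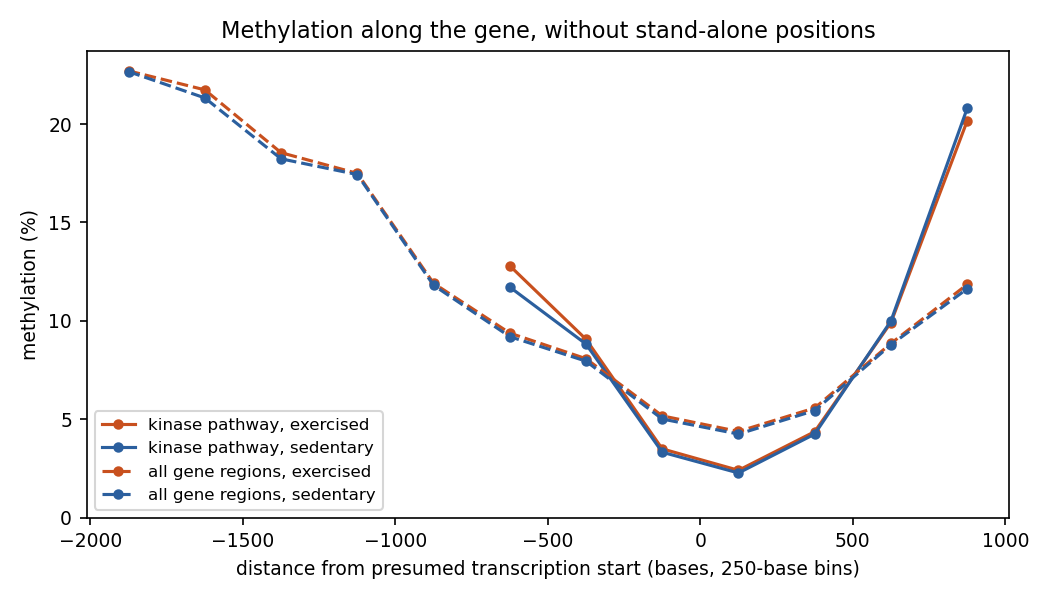
Mean methylation in percent, without stand-alone positions, by distance from the presumed transcription start in bins of 250 bases, for kinase pathway regions (solid lines) and all gene regions (dashed lines), in exercised (orange) and sedentary (blue) samples; bins with fewer than 20 positions or 5 regions are not drawn. Without stand-alone positions all lines dip just after the start, where the kinase pathway regions average 2.41% in exercised and 2.28% in sedentary samples.

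Single cytosines were tested as well. Of the 3033 positions 2841 could be tested, the rest having no methylated or no unmethylated read in any sample. edgeR called 0 of them after adjustment over all 253960 tested positions (0%), and the smallest adjusted p was 0.919. At an unadjusted p under 0.05 it called 79 (47 higher and 32 lower in exercised samples), or 2.78%, against 3.32% of all tested positions. By the p-value in the authors' deposited table, which carries no adjustment, 78 were under 0.05, or 2.75%, against 3.13% of all.

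With a difference of at least 20 points as well, edgeR's test left 2 positions, both of them stand-alone positions. Position 24413867 of chromosome 5 (mm9), in the downstream region of Prkag2, had 94.9%, 79.4% and 100% in exercised samples at 39, 63 and 28 reads, against 30.3%, 90.9% and 58.3% in sedentary samples at 33, 33 and 36 reads. The groups overlapped, because sedentary sample 2 lay between the exercised samples. The difference was 31.6 points with an unadjusted p of 0.0301 in edgeR's test. The adjacent position 24413868 had 40.2% in exercised and 37.3% in sedentary samples. It was taken as the other strand of the same CG, which was not checked on sequence.

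Position 88979848 of chromosome 15, in the region of Mapk11, had 15.7%, 9.59% and 10.3% in exercised samples at 83, 73 and 39 reads, against 29.5%, 48.9% and 50% in sedentary samples at 44, 47 and 12 reads. All exercised samples were below all sedentary ones. The difference was -31.0 points with an unadjusted p of 0.0376 in edgeR's test. The adjacent position 88979847, likewise taken as the other strand, differed by -0.629 points, at 99.4% in exercised and 100% in sedentary samples. Of the positions in these regions, 3 carried in the authors' deposited table the class for strong gains (in Camkv, Prkce and Map3k6, by 26.4, 31.2 and 27.1 points) and 2 that for strong losses (in Mapk11 and Map3k5, by -31.0 and -21.0 points). Over all positions with a deposited p, 0.0878% carried the class for strong gains and 0.124% that for strong losses. All 5 were stand-alone positions, and edgeR's unadjusted p was 0.130, 0.131, 0.149, 0.0376 and 0.222 in that order.

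Other genes of the same pathways, from a list of 120 that act beside these kinases (Ras and Raf proteins, MAPK phosphatases, mTOR and its partners, calcineurin, adenylyl cyclases, CREB and its coactivators), were read beside them. Of these, 99 genes were measured in 106 regions, 58 above and 48 below 0, with a median difference of 0.114 points. edgeR called 0 after adjustment. At an unadjusted p under 0.05 it called 2.37% of all gene regions (0.908% as lower), and 1 of these 106, lower in exercised samples. It was Strada, the pseudokinase partner of the AMPK-activating kinase LKB1, with 30.1%, 33.3% and 46.3% in exercised samples against 47.1%, 45.2% and 59.0% in sedentary samples over 3 positions. Exercised sample 3 lay among the sedentary samples, and the difference was -13.8 ± 6.58 points (SE) with an unadjusted p of 0.0243.

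Depth differed among the samples and bears on every value above. Total coverage was 14556783 to 17815556 calls in exercised samples and 9153526 to 18656340 in sedentary samples. The median coverage of the 3033 positions was 47, 55 and 51 reads in exercised samples and 47, 60 and 28 in sedentary samples, lowest in sedentary sample 3. Reads may include PCR copies, since no molecular identifiers are mentioned, and the reads behind a level are then not independent molecules.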

How the data were processed

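RRBS of quadriceps DNA gave 3 exercised and 3 sedentary samples, and all 6 were used. The authors deposited 1 table of 268725 cytosine positions in 10755 regions of 3000 bp (build mm9), each strand of a CG on its own line. The authors deposited, per sample, the methylated fraction of each position and the count of reads covering it, at least 10 in every sample. They also deposited a difference of group means, an unadjusted p-value and a class per position. The submitters' processing notes list Bismark 0.7.7 with Bowtie 0.12.9, mm9, cutadapt 1.0 and Trim Galore 0.2.5, with settings not given in the sources used here. Each fraction times its coverage lay within 0.00236 of a whole read, and the rounded product was used as the methylated read count. No sequence of the build mm9 was used.

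Symbols came from a RefSeq table of GRCm38.p6 (10655 of 10755 regions matched), used for names only. Sequences are those of RefSeq, GRCm38.p6, with 78 of the 92 genes in the promoter table. Reads were summed over each region with at least 3 positions. With edgeR 4.0.16 under R 4.3.3, a quasi-likelihood model was fitted to methylated and unmethylated counts of all 10021 regions, with sample terms plus a group term on methylated counts. The dispersion had no trend, and p-values were adjusted by Benjamini-Hochberg with a threshold of 0.05. The model was fitted likewise to all positions with both kinds of read. The script was tested on simulated counts. Levels are means of samples ± SD and differences carry the SE of the 3 against 3 samples. Other settings tried were at least 5 positions per region, a coverage of at least 20, each sample left out in turn, a replicate block, no stand-alone positions, limma 3.58.1 on log2((methylated + 2)/(unmethylated + 2)), an unweighted mean over positions, and the deposited p-value.

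Same-numbered exercised and sedentary samples did not deviate together (correlations 0.00210, -0.240 and -0.0834, against -0.109 to 0.191 for unlike numbers). Such correlations cannot show whether samples were paired, and the labels give no pairing beyond the number. The genes and lists were chosen with earlier results of these data known. Genes named are the 6 with the smallest p and the 4 with the largest difference per direction, the 5 highest and 5 lowest levels, a list of well-known muscle kinases, the largest difference of each role, genes with more than 1 region, and positions differing by at least 20 points at an unadjusted p under 0.05. The values of 1 gene under this rule are not reported here. Named beyond this rule, after their values were seen, were Camk1d, Camkk1, Camkv, Irs4, Prkca, Prkar2a, Prkd3, Prkcsh, Prkce, Map3k5, Map3k6, Mapk7, Mapk9, Mapkapk2 and Strada.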

Additional observations from a re-analysis of the deposited data

How the results depend on the processing

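No gene region and no position passed the adjusted threshold under any alternative run. The count of kinase pathway regions at an unadjusted p under 0.05 was 1 of 95 with all samples and 0 to 2 when 1 sample was left out. At a coverage of at least 20 it was 2 of 88 (Map3k2 and Mapk7). With an unweighted mean of positions it was 3 of 95 (Mapk9, Mapkapk2 and the upstream Prkcz region). It stayed at 1 (Mapk3) with the replicate block, limma, at least 5 positions or no stand-alone positions. Over all gene regions this count was 237 of 10021 (2.37%). It was 601 of 10021 without exercised sample 3, 440 of 9707 without stand-alone positions and 384 of 10021 with an unweighted mean. The share over the 8514 gene regions at a coverage of at least 20 is not given here. Of single positions in kinase pathway regions 79 had an unadjusted p under 0.05 in edgeR's test, against 11 with the replicate block and 35 to 78 when 1 sample was left out. Counts over all tested positions with the block or with 1 sample left out are not given here. The lower counts therefore cannot be read as particular to these genes. The replicate block changed no adjusted call. The median difference over the kinase pathway regions stayed positive, from 0.182 points without stand-alone positions to 1.18 points without exercised sample 3, while that over all gene regions was -0.00949 without exercised sample 1. Single differences, none of them called, changed sign as follows, and the cause was not tested. When 1 sample was left out, the difference ranged from -0.338 to 0.757 points in Akt1, -0.101 to 1.40 in Camkk2, -4.10 to 0.757 in Irs1, -1.47 to 6.03 in Map2k3, -0.490 to 0.162 in Map4k4, -1.21 to 0.587 in Mapk14, -0.371 to 2.03 in Mapkapk5, -0.804 to 2.14 in Pik3r5, -1.52 to 1.05 in Prkab2, -0.841 to 1.21 in Prkaca, -4.22 to 5.61 in Prkcq, -2.09 to 1.51 in the downstream Prkcz region, -0.255 to 1.83 in Prkdc, -0.577 to 7.58 in Rps6kl1 and -0.639 to 0.992 in Tbc1d1. At a coverage of at least 20 it was -0.0996 in Akt1, -3.13 in Camk2b, 0.477 in Camk4, -0.403 in Map2k5, -0.391 in Mapkapk5, -1.09 in the upstream Prkag2 region and -0.313 in Prkdc. Without stand-alone positions it was 0.231 in Camk2g, 0.418 in Camk4, -0.189 in Camkk2, -0.104 in Map3k11, 0.230 in Map4k4, -0.500 in Pik3ap1, 0.12 in Prkab2, -0.243 in Prkcq and -0.158 in Prkdc. With an unweighted mean it was -0.215 in Akt1, -0.0828 in Camkk2, -0.257 in Insr, -0.530 in Map2k3, 0.257 in Map4k4, -0.887 in Pik3ap1, -2.95 in Pik3r5, 1.14 in Prkar1b, -1.41 in Prkcq, 1.09 in the downstream Prkcz region and -1.22 in Tbc1d1. Counting error is larger where reads are few, and no interval for it is given. Sedentary sample 3 had the lowest median coverage, 28 reads.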
